A study of Mus musculus with 6 samples.

Results

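Haematopoietic stem cells switch on some genes of the lymphoid programme at a low level before any lymphoid cell is formed, a state called lymphoid priming. The 10 genes described here are Ikzf1, Ikzf2, Satb1, Dntt, Il7r, Notch1, Tcf3, Mn1, Dach1 and Blnk, chosen by name out of 55357 gene identifiers counted. Their levels were read in long-term haematopoietic stem cells (LT-HSCs) of 3 Dcaf8 knockout (KO) and 3 wild-type (WT) mice. DCAF8 is a receptor that brings substrates to CUL4-based ubiquitin ligases, and the study asked how its loss impairs these cells. The cells came from bone marrow of young mice and were sorted as Lin-Sca-1+c-Kit+CD150+CD48-. Each library was made from 50 cells of 1 mouse by full-length mRNA amplification. The labels give the genotype as Dcaf8 KO or wild-type, without naming the allele, the strain or the age in weeks.

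Lymphoid priming begins with transcription factors and ends with the molecules that lymphocytes use. Ikaros (Ikzf1) and E2A (Tcf3) act early and open the lymphoid programme. SATB1 and Notch1 signalling then bias progenitors towards lymphocytes, above all T cells. The interleukin-7 receptor (Il7r), terminal transferase (Dntt) and the B cell linker protein (Blnk) belong to committed lymphoid cells, where they carry survival signals, diversify antigen receptors and relay pre-B cell receptor signals.

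Total counts ranged from 14461864 to 22386387 per library. Dcaf8 itself stood at 74.3, 38.1 and 45.2 CPM in KO replicates 1 to 3, against 290.5, 293 and 204 CPM in WT replicates 1 to 3. All levels of single genes are TMM-normalised CPM, which are counts scaled to a common library size and composition. All 16 LT-HSC markers listed for this purpose had counts. Their sums were 2858 to 3470 CPM in KO and 2952 to 3109 CPM in WT libraries, so the labelled cell type carried its defining markers. Of the other lists, 9 of 19 B cell markers and 7 of 15 T cell markers had no count in any library, among them Pax5, Ebf1, Ms4a1, Cd3e and Cd3g. The summed level of the T cell markers was 36.0, 42.5 and 34.0 CPM in KO replicates 1 to 3, against 18.3, 11.5 and 27.8 CPM in WT replicates 1 to 3. These groups did not overlap, which was also true of 10.3% of all genes tested. Most of the sum was the kinase gene Lck, whose own groups overlapped. Lck stood at 27.0, 22.7 and 29.9 CPM in KO replicates 1 to 3, against 13.4, 9.94 and 25.4 CPM in WT replicates 1 to 3. The part of the T cell markers in the results was not tested. In KO replicate 3 Xist stood at 50.8 CPM and Ddx3y at 0, while Xist reached at most 1.25 CPM in the other 5 libraries, so it was the female library. WT replicate 2 held 7747 CPM of neutrophil genes, while the other 5 libraries held 124 to 291 CPM. WT replicate 3 missed genes most often, with 340 tested genes under 10 counts there and at least 50 counts in each other library, and the other libraries had 23 to 96 such genes. The part of these 3 libraries in the results was not tested, and values without them stand beside several results.

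The molecules of committed lymphoid cells were silent or nearly so. Il7r, the receptor chain that lymphoid progenitors need for survival, had 0 counts in each KO and each WT library. Dntt, the template-independent DNA polymerase that adds bases at antigen receptor joints, also had 0 counts in all libraries. A count of 0 allows up to 0.134 to 0.207 CPM in a KO library and 0.144 to 0.169 CPM in a WT library, taking 3 counts as the limit. Il7r and Dntt were therefore not detected in either genotype, which alone does not settle whether the cells were primed.

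Blnk, the adaptor that couples the pre-B cell receptor to its effectors, was counted in KO replicates 1 and 2 alone. It had 38, 49 and 0 counts in KO replicates 1 to 3 and 0 counts in every WT library. These counts equal 1.67 and 3.41 CPM in the 2 KO libraries, and the third KO library did not differ from the WT libraries. The KO mean was at least 11.0-fold higher than the WT level, with WT set to the limit of 3 counts per library. This bound allows for counting error in WT alone and not for the spread of the KO libraries. That bound was 5.50-fold without KO replicate 2 and 16.5-fold without KO replicate 3. Blnk failed the filter on low counts and was not tested. Without that filter edgeR gave an unadjusted p of 0.111 and an adjusted p of 0.992. Of the 21137 genes with any count, 2320 (11%) had counts in KO and none in WT libraries, and 303 (1.43%) had at least 10 counts in 2 or more KO libraries with none in WT. The summed level of the B cell markers overlapped between the groups, at 121, 169 and 121 CPM in KO replicates 1 to 3, against 137, 126 and 187 CPM in WT replicates 1 to 3. Pax5, Ebf1 and Ms4a1 were at 0 throughout, and Cd79b and Cd72 made up most of the sum. In bulk libraries a few cells with the gene and a low level in many cells cannot be told apart.

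Blnk and Dntt are neighbours on chromosome 19, on opposite strands and with no annotated gene between them, and Dntt was at 0 also in the KO libraries that counted Blnk. The sequences before their start sites, and before those of Il7r and Tcf3, are printed because they set the silent genes beside the most highly expressed member. Capitals mark the E-box CANNTG, the motif that E2A dimers bind, which reads the same on both strands. Sequences are from RefSeq on GRCm38.p6 (the counts used mm39), on the gene's strand.
Dntt, chr19:41029025-41029274, + strand: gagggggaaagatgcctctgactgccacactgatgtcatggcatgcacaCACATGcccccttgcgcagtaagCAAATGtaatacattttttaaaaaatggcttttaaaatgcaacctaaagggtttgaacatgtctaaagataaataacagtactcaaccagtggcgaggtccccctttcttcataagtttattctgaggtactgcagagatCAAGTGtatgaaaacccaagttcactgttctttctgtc
Il7r, chr15:9529877-9530126, - strand: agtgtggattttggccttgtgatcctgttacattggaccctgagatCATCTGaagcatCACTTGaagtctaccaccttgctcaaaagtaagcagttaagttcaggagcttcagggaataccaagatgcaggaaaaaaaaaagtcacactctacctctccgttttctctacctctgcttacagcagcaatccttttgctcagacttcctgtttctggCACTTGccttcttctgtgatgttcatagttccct
Blnk, chr19:40994222-40994471, - strand: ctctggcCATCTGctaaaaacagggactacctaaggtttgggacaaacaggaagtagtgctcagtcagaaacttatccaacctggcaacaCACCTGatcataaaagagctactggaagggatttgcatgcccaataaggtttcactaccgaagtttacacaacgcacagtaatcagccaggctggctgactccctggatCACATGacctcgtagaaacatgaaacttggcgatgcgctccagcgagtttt
Tcf3, chr10:80433636-80433885, - strand: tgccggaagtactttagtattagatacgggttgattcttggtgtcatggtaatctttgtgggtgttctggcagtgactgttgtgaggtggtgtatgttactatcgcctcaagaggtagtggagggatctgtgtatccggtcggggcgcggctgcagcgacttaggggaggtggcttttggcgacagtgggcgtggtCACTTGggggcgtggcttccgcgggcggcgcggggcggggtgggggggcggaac

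Each of the 3 silent or nearly silent genes held 3 E-boxes in its 250 bases, none overlapping another. Tcf3 held 1, and Notch1, Dach1 and both Ikzf1 start sites held 0. Among all 32851 windows of the same length, 12.2% held 3 or more E-boxes. The share was 15.7% in windows of genes with no count in any library and 7.05% in windows of tested genes. The windows also differed in CpG dinucleotides, the sites of DNA methylation that are dense at the promoters of widely expressed genes. Il7r held 1, Dntt 2 and Blnk 6, against 16 in Notch1, 18 in Tcf3, 13 in Dach1 and 44 and 1 at the Ikzf1 start sites. The 5 Satb1 start sites held 41, 12, 6, 5 and 3 CpGs, with 0 to 2 E-boxes. Over all genes the median was 15 CpGs in windows of tested genes and 3 in windows of genes with no count in any library. The Ikaros word TGGGAA, searched on both strands, was found in 21.6% of all windows and in 1 of the 13 windows of 8 members, a Satb1 start site. These matches describe letters in a window and not bound sites.

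The early-acting transcription factors were the abundant members. Tcf3, which encodes the E proteins E12 and E47, stood at 151, 177 and 143 CPM in KO replicates 1 to 3 and at 175, 132 and 137 CPM in WT replicates 1 to 3. The groups overlapped over a narrow range in both genotypes, and Tcf3 averaged 157 ± 17.6 CPM in KO and 148 ± 23.3 CPM in WT cells (SD, n = 3 each). Its log2 fold change, KO over WT, was 0.08 ± 0.18 (SE), the smallest standard error among the members. Without KO replicate 2 the direction turned, at -0.0040.

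Ikzf1, the founding Ikaros family gene and a zinc-finger factor required for B and T cell development, stood at 85.6, 125 and 99.0 CPM in KO replicates 1 to 3. In WT replicates 1 to 3 it stood at 181, 76.4 and 156 CPM. WT replicate 2 was lower than every KO library, and the other WT libraries were higher than every KO library, so the groups overlapped. The mean was 103 ± 19.8 CPM in KO and 138 ± 54.7 CPM in WT cells (SD, n = 3 each), with a log2 fold change of -0.43 ± 0.33 (SE). It was -0.73 without WT replicate 2, the library with neutrophil genes, and -0.19 without WT replicate 1. Per kilobase of exon Tcf3 and Ikzf1 stood apart from the other members. Tcf3 averaged 37.7 ± 4.73 CPM per kb over the 6 libraries and Ikzf1 20.9 ± 7.18 CPM per kb (SD, n = 6). Ikzf1 lay below Tcf3 and above Dach1 in each of the 6 libraries, with ranges that did not overlap.

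**Figure D1:**
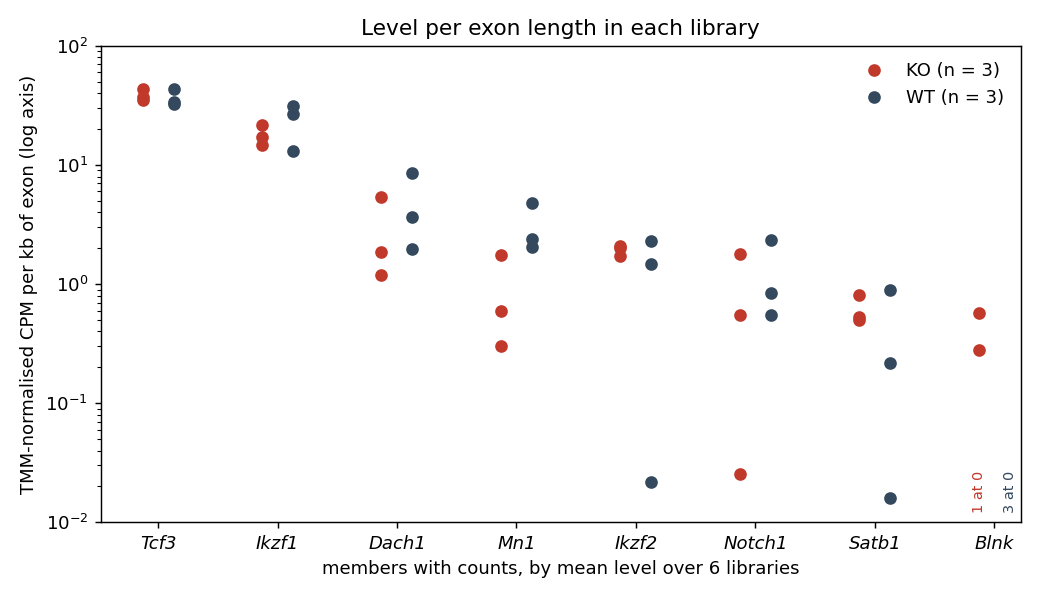
Level of each member with counts in every library, as TMM-normalised CPM per kb of exon on a log axis, with KO (red, left) and WT (blue, right) side by side and n = 3 each. Tcf3 and Ikzf1 lie above all other members, and libraries without a Blnk count are written at the bottom (1 KO, 3 WT).

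Below these, Dach1 averaged 3.78 ± 2.82 CPM per kb, Mn1 1.99 ± 1.62, Ikzf2 1.60 ± 0.823, Notch1 1.02 ± 0.873 and Satb1 0.492 ± 0.334 CPM per kb over the 6 libraries (SD, n = 6). From Dach1 to Satb1 the ranges of neighbours in this order overlapped. Dach1 lay above Mn1 in 4 of the 6 libraries, and Mn1 above Ikzf2 in 2. Ikzf2 lay above Notch1 in 5 of the 6 libraries, and Notch1 above Satb1 in 3. The order of these neighbours was therefore not the same in every library. Dach1 and Satb1, at the ends of this order, had ranges of 1.19 to 8.63 and 0.0160 to 0.888 CPM per kb, which did not overlap. Without the scaling by length they overlapped, at 8.73 to 63.2 CPM for Dach1 and 0.304 to 16.9 CPM for Satb1. The length counts every annotated exon base, 7.32 kb for Dach1 and 19.0 kb for Satb1, so this order depends on it. Blnk came last of the members with counts, at 0.141 ± 0.237 CPM per kb.

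Mn1 had the largest fold change of the 7 tested members with all 6 libraries, though not without WT replicate 1 (log2 fold changes of 2.30 for Satb1 against -1.90 for Mn1) or without KO replicate 1 (-2.41 for Notch1 and -1.67 for Dach1 against -1.27 for Mn1). It encodes a transcriptional co-regulator best known as a myeloid leukaemia oncogene. It stood at 2.10, 4.11 and 12.3 CPM in KO replicates 1 to 3, against 16.7, 14.3 and 33.5 CPM in WT replicates 1 to 3. Every KO library lay below every WT library, though KO replicate 3 came close to WT replicate 2. The mean was 6.16 ± 5.38 CPM in KO and 21.5 ± 10.5 CPM in WT cells (SD, n = 3 each), which left 28.6% of the WT level. The log2 fold change was -1.76 ± 0.68 (SE). By edgeR the unadjusted p was 0.0335 and the adjusted p over all genes 0.841, so Mn1 did not pass. An exact permutation test over the 20 assignments gave p = 0.1, two-sided, the smallest that 3 against 3 animals allow. Fully separated groups always give this p, so it adds nothing to the separation itself. The log2 fold change was -2.90 without KO replicate 3 and -3.14 without that library and WT replicate 2. Over all 15 alternatives it ranged from -3.14 to -1.27, with adjusted p from 0.513 to 1.00.

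Dach1 encodes a transcriptional co-repressor whose loss in mouse progenitors accompanies lymphoid priming. Dach1 stood at 39.3, 13.6 and 8.73 CPM in KO replicates 1 to 3, against 63.2, 26.9 and 14.4 CPM in WT replicates 1 to 3. The groups overlapped, since KO replicate 1 exceeded 2 of the WT libraries. The log2 fold change was -0.66 ± 0.71 (SE). The direction turned without WT replicate 1, at 0.05, and the value was -1.67 without KO replicate 1, -1.05 without WT replicate 3 and -0.26 without KO replicate 3.

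Ikzf2 and Satb1 shared a gap in the same WT library. Ikzf2 encodes Helios, the Ikaros relative found in stem cells and regulatory T cells. It stood at 24.1, 19.8 and 23.2 CPM in KO replicates 1 to 3, against 17.2, 26.7 and 0.254 CPM in WT replicates 1 to 3. The 3 KO libraries were close together, with a coefficient of variation of 9.99%, and the first 2 WT libraries lay on either side of them. WT replicate 3 held 5 Ikzf2 counts where every other library held 285 or more.

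Satb1, a chromatin organiser needed for T cell development, stood at 10.1, 15.3 and 9.50 CPM in KO replicates 1 to 3. In WT replicates 1 to 3 it stood at 16.9, 4.12 and 0.304 CPM. WT replicate 1 had the highest and WT replicate 3 the lowest level of the 6. The log2 fold changes of 0.61 ± 0.71 for Ikzf2 and 0.73 ± 0.83 for Satb1 (SE) were 0.03 and 0.15 without WT replicate 3. Satb1 also stood at 2.30 without WT replicate 1, and Ikzf2 at 1.44 without WT replicate 2. Both had a higher mean in KO, at 22.4 ± 2.23 against 14.7 ± 13.4 CPM in WT for Ikzf2 and 11.6 ± 3.20 against 7.10 ± 8.69 CPM in WT for Satb1 (SD, n = 3 each).

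Notch1, the receptor that commits progenitors to the T cell lineage, varied widely within both genotypes. It stood at 25.5, 7.87 and 0.362 CPM in KO replicates 1 to 3, against 12.0, 7.85 and 33.4 CPM in WT replicates 1 to 3. The lowest level was in KO replicate 3, with 8 counts, and the highest was in WT replicate 3, the library in which Ikzf2 and Satb1 were lowest. The log2 fold change of -0.60 ± 0.93 (SE) turned direction without KO replicate 3, at 0.04, and without WT replicate 3, at 0.26. It was -2.41 without KO replicate 1 and -0.98 without WT replicate 2. Antisense genes overlap 7.5% and 2.9% of the exon bases of Notch1, with 116 and 43 counts in all libraries, and the sources used here do not say whether reads were counted by strand, so reads of these overlaps cannot be assigned to 1 gene.

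**Figure D2:**
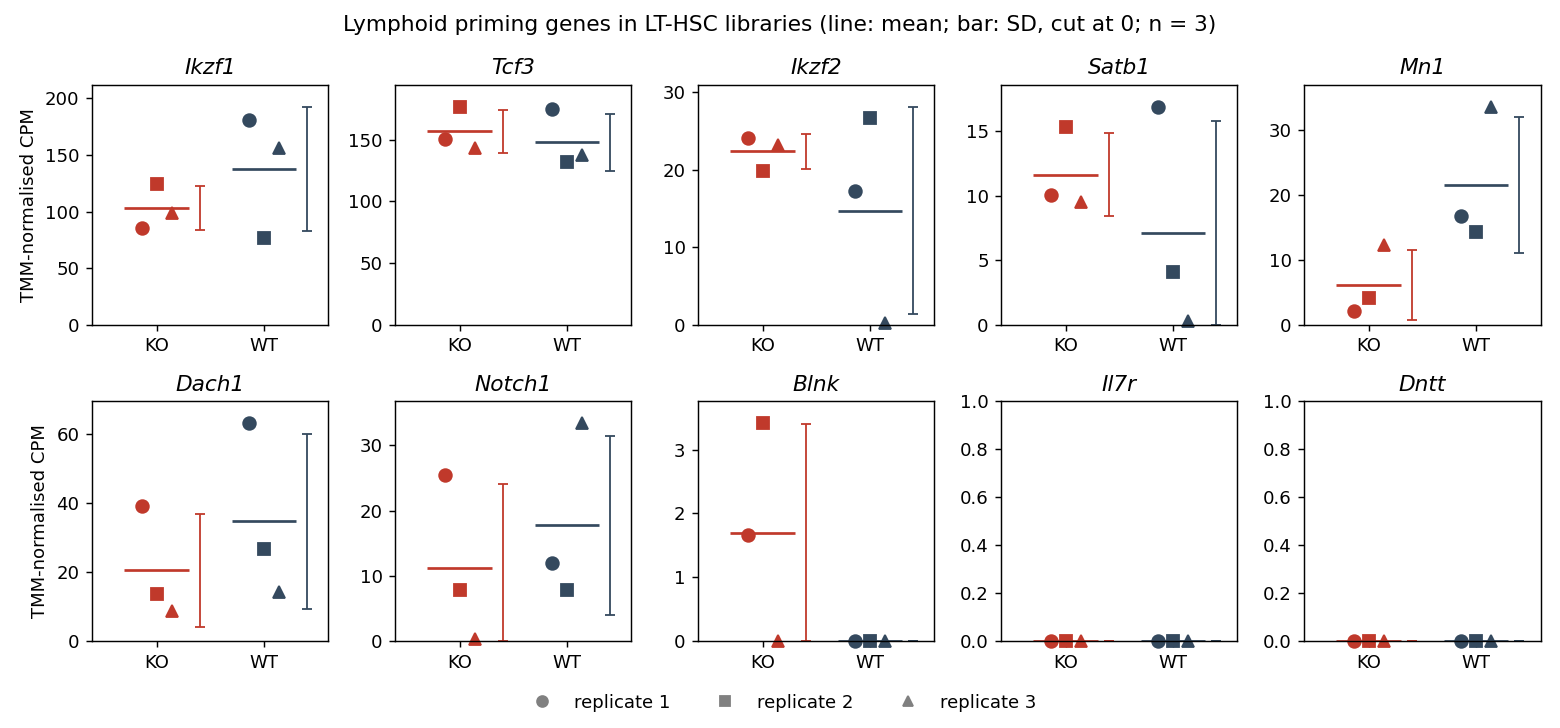
TMM-normalised CPM of each of the 10 genes in every library, KO (red) left of WT (blue), with marker shapes for replicate numbers, lines for means and bars for SD (n = 3 each, cut at 0). The groups overlap in every panel but that of Mn1, where the KO libraries at 2.10 to 12.3 CPM lie below the WT libraries at 14.3 to 33.5 CPM.

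Of the 10 genes, 7 passed the filter on low counts, which needs about 10 counts in 3 libraries, and edgeR passed 0 of the 7 at a Benjamini-Hochberg adjusted p under 0.05 over 14592 genes. In the same fit 0% of all genes passed. At an unadjusted p under 0.05 there was 1 of the 7, Mn1, against 5.82% of all genes, 2.35% with KO lower and 3.47% with KO higher. DESeq2 passed 0 of the 7 and 0.466% of all genes, and limma-voom passed 0 of the 7 and 0% of all genes. DESeq2 and limma-voom gave 5.22% and 5.31% of all genes an unadjusted p under 0.05. KO and WT libraries were fully separated for 1 of the 7, again Mn1, against 10.3% of all genes and 4.43% with KO lower. Values were higher in KO for 3 of the 7 (Tcf3, Ikzf2 and Satb1) and lower for 4, where 50.9% of all genes were higher. The median log2 fold change of the 7 was -0.43, against 0.01 over all genes. It lay above 0 when WT replicate 1 (0.05), WT replicate 3 (0.03) or KO replicate 3 (0.04) was left out. The mean level of the 7, in log2 CPM, was 4.67, 4.51 and 3.89 in KO replicates 1 to 3 and 5.26, 4.53 and 3.66 in WT replicates 1 to 3. WT replicate 1 was the highest and WT replicate 3 the lowest of the 6, so both extremes were of the same genotype.

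**Figure D3:**
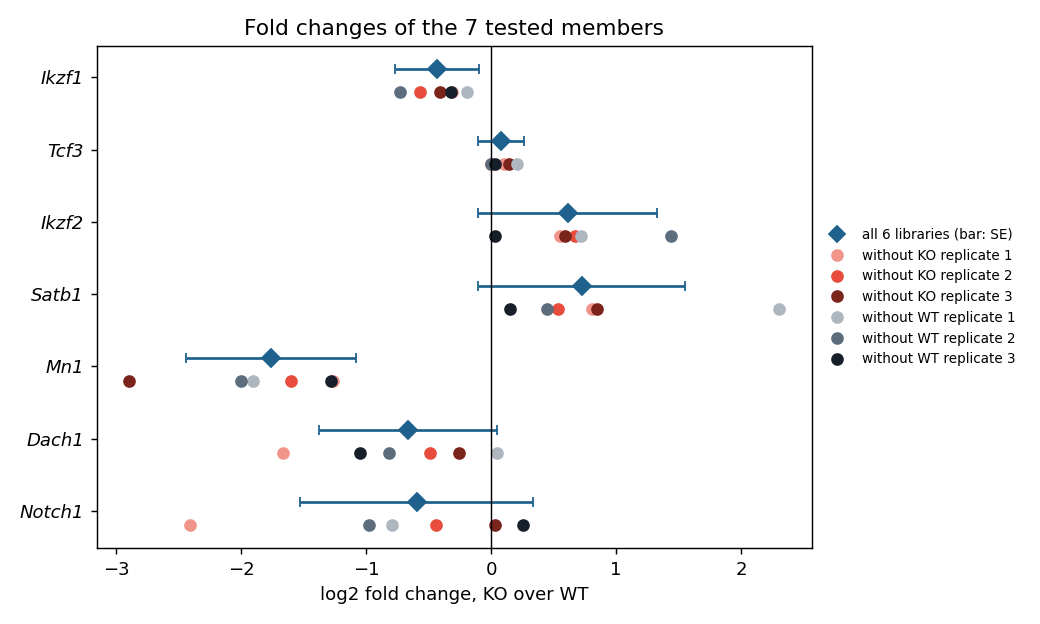
Log2 fold change, KO over WT, of the 7 tested genes with all 6 libraries (blue diamonds, bars are SE) and with each library left out (circles below, red shades for KO and grey shades for WT libraries). Mn1 stays below 0 throughout, at -2.90 to -1.27, while circles of Notch1, Dach1 and Tcf3 lie on both sides of 0.

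Genes that work with the members were then read in 9 lists of related genes, with the members left out. Of 120 distinct genes tested, 0 passed by edgeR, 68 had higher and 52 lower values in KO, and the median log2 fold change was 0.06. At an unadjusted p under 0.05 there were 14 (11.7%), 9 higher and 5 lower, against 5.82% of all genes. Without KO replicate 3 and WT replicate 2, a choice made after seeing the data, there were 8 (6.67%), against 5.89% of all genes. The other alternatives gave 8.33% to 13.3%, against 3.83% to 9.37% of all genes.

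Of 25 early B and T lineage transcription factors, 8 had no count in any library, namely Ebf1, Pax5, Bcl11b, Tcf7, Lef1, Spib, Pou2af1 and Tbx21. Rag1 and Rag2, the recombinase that makes the breaks Dntt works on, and the progenitor markers Ly6d, Ccr7 and Ccr9 were also at 0 in all 6 libraries. Runx3, a Runt-domain factor of cytotoxic T cells, stood at 41.2, 28.1 and 31.2 CPM in KO replicates 1 to 3, against 15.8, 12.5 and 11.7 CPM in WT replicates 1 to 3. The groups did not overlap, which was also true of 10.3% of all genes tested. Runx3 was named for its small p, so the separation is no further support. The log2 fold change of 1.37 ± 0.38 (SE) had an edgeR adjusted p of 0.739. Foxo1, which drives Il7r and Rag expression in lymphoid cells, stood at 24.7 ± 13.2 CPM in KO and 13.6 ± 4.52 CPM in WT cells (SD, n = 3 each). Its log2 fold change of 0.95 was 0.52 without KO replicate 1.

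Partners of Tcf3 were mixed. Of the 8 tested, 4 were higher and 4 lower in KO. Id3, an inhibitor that binds E proteins and keeps them off DNA, stood at 19.4, 34.7 and 33.9 CPM in KO replicates 1 to 3. In WT replicates 1 to 3 it stood at 18.3, 7.85 and 0.0507 CPM, and WT replicate 3 was again lowest. Every KO library was higher than every WT library, though KO replicate 1 came close to WT replicate 1. Id3 was also named for its small p, and 10.3% of all genes tested had groups without overlap. Tcf12, the E protein HEB, had 73.1 ± 10.7 CPM in KO and 46.6 ± 10.6 CPM in WT cells (SD, n = 3 each). The edgeR adjusted p was 0.841 for Id3 and 0.860 for Tcf12. Id3 had a log2 fold change of 1.77, which was 1.18 without WT replicate 3 and 2.83 without WT replicate 1. Among the 4 lower partners, Id2, an inhibitor like Id3, had 5.97 ± 1.61 CPM in KO and 23.6 ± 23.6 CPM in WT cells. The E protein gene Tcf4 had 114 ± 14.3 CPM in KO and 150 ± 9.64 CPM in WT cells (SD, n = 3 each). Both had an edgeR adjusted p of 0.866.

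Around Il7r the rest of the receptor pathway was present. Its 15 other listed genes were all tested, 10 higher and 5 lower in KO, with a median log2 fold change of 0.14. Jak3, the kinase of the shared gamma chain, stood at 195 ± 35.7 CPM in KO and 129 ± 33.9 CPM in WT cells, and Stat5a, its downstream factor, at 145 ± 6.10 CPM in KO and 107 ± 40.6 CPM in WT cells (SD, n = 3 each). Neither passed (edgeR adjusted p = 0.841 and 0.917). Stat5a had a log2 fold change of 0.45, which was 0.23 without WT replicate 3 and 0.77 without WT replicate 1.

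Of the Notch genes 11 were higher and 13 lower in KO, with a median log2 fold change of -0.05. Hes1, a direct target of Notch signalling, stood at 29.5, 5.99 and 7.55 CPM in KO replicates 1 to 3, against 53.2, 44.3 and 16.0 CPM in WT replicates 1 to 3. The groups overlapped. Numb, an inhibitor of Notch, stood at 22.1 ± 12.9 CPM in KO and 43.4 ± 13.4 CPM in WT cells (SD, n = 3 each). The edgeR adjusted p was 0.881 for Hes1 and 0.874 for Numb. Hes1 had a log2 fold change of -1.28, which was -2.44 without KO replicate 1 and -0.77 without both KO replicate 3 and WT replicate 2. Numb had one of -0.93, which was -1.55 without KO replicate 3. Ptcra, the pre-T cell receptor chain that Notch induces in thymocytes, had no count in any library.

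Among partners of Blnk, 9 of 16 were higher and 7 lower in KO, with a median log2 fold change of 0.14. Itpr1, a calcium channel that acts downstream of this adaptor, stood at 8.67 ± 6.03 CPM in KO and 28.3 ± 8.71 CPM in WT cells, and the adaptor Nck2 at 15.8 ± 2.39 CPM in KO and 50.5 ± 5.59 CPM in WT cells (SD, n = 3 each). Their edgeR adjusted p values were 0.781 and 0.739. DESeq2 passed 2 of the 120 related genes, Nck2 and Dll1, both lower in KO, against 0.466% of all genes. Dll1 was a low gene, at 0 CPM in each KO library and at 0.732, 7.76 and 8.47 CPM in WT replicates 1 to 3.

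Of the remaining lists, end-joining genes were 6 higher and 5 lower with a median of 0.01, and Dclre1c, the Artemis nuclease that opens hairpins before Dntt acts, stood at 16.3 ± 3.71 CPM in KO and 44.8 ± 23.8 CPM in WT cells. Dclre1c had a log2 fold change of -1.44, which was -0.90 without WT replicate 3. Nhej1, a ligation factor, stood at 13.4 ± 4.37 CPM in KO and 26.1 ± 1.44 CPM in WT cells (SD, n = 3 each). Genes of lymphoid-primed progenitors were 13 higher and 6 lower with a median of 0.10. Wfdc17, a secreted protease-inhibitor-like gene, stood at 53.5, 41.7 and 29.9 CPM in KO replicates 1 to 3, against 17.0, 11.1 and 0 CPM in WT replicates 1 to 3. Its log2 fold change of 2.19 was 1.59 without WT replicate 3. Flt3, the cytokine receptor that marks lymphoid-primed progenitors, stood at 67.7 ± 33.3 CPM in KO and 70.7 ± 13.8 CPM in WT cells (SD, n = 3 each), a log2 fold change of -0.03 ± 0.37 (SE) that lay between -0.55 and 0.19 with each library left out. For the partners of Satb1, Mn1 and Dach1, 8 were higher and 4 lower, with a median of 0.23. Ctcf, the insulator protein, stood at 172 ± 30.4 CPM in KO and 119 ± 20.9 CPM in WT cells (SD, n = 3 each). Of the Ikaros relatives Ikzf3 (Aiolos) was at 0 in all libraries, and Ikzf4 and Ikzf5 had overlapping groups.

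**Figure D4:**
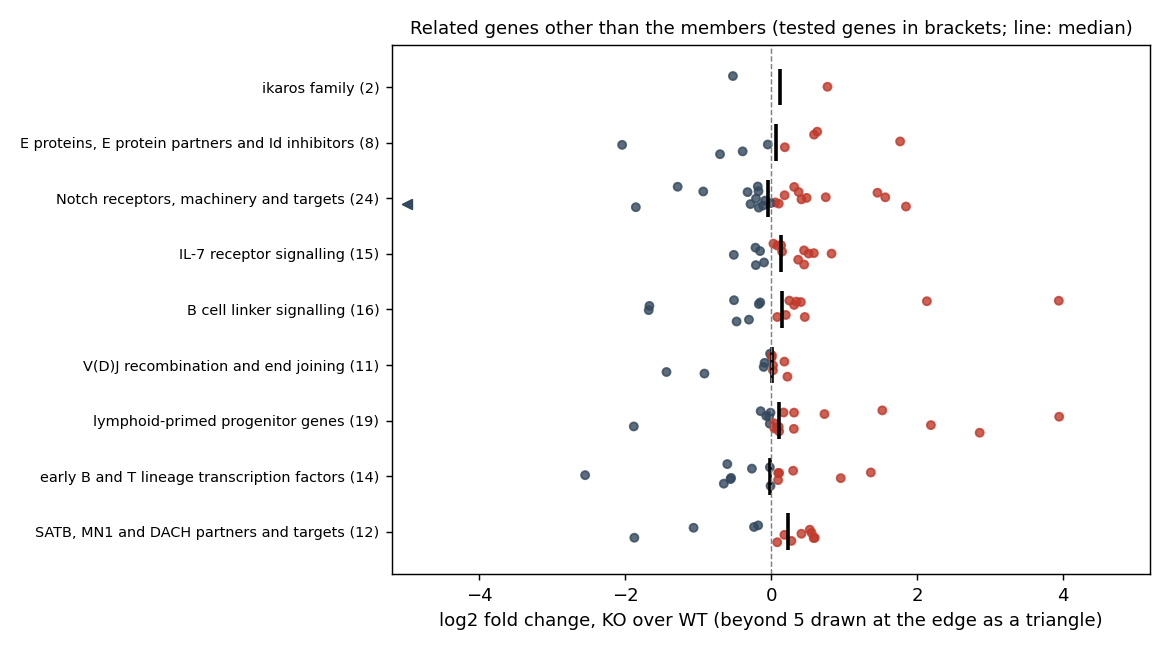
Log2 fold changes, KO over WT, of tested genes in 9 lists of related genes without the members (red above 0, blue below 0, black lines are list medians, tested genes in brackets). Medians lie between -0.05 and 0.23, and a gene listed beyond the axis, Dll1, has no count in any KO library.

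Of the 120 related genes, Pik3cd (r = 0.88), Tox (r = 0.83) and Ets1 (r = 0.82) had the log2 CPM pattern most like the mean of the 7 tested members over the 6 libraries, and Xrcc6 the least like it (r = -0.85). With 6 points that share libraries and depth, these are descriptions only. Pik3cd, the leukocyte catalytic subunit of PI3-kinase, stood at 138, 84.9 and 97.4 CPM in KO replicates 1 to 3 and at 178, 105 and 67.7 CPM in WT replicates 1 to 3, so it too was highest in WT replicate 1 and lowest in WT replicate 3.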

How the data were processed

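The authors deposited raw read counts per Ensembl gene, 1 column per library. Trimmomatic 0.39, HISAT2 2.2.1, Picard 2.26.1, HTSeq 1.99.2, DESeq2 1.38.3 and the build mm39 are named without roles per the submitters' processing notes. Symbols were matched for 52081 identifiers (94.1%). Of identifiers sharing a symbol, the one with most counts kept it. The test was edgeR 4.0.16 in R 4.3.3 (filterByExpr, TMM, robust quasi-likelihood with legacy off, genotype only), with Benjamini-Hochberg adjustment and a threshold of 0.05, tested on simulated counts. DESeq2 1.42.0 and limma-voom (limma 3.58.1) were alternatives. Exon lengths came from GENCODE M21 (GRCm38), another build than the counts, and join the exons of all annotated transcripts of a gene. Amplified reads carry no molecular identifiers, so limits of 3 counts cover counting error only. Members, lists and tests were chosen with earlier results of these data known. Named related genes were at most 2 per list ranked by p, among those averaging 5 CPM or more, and the 4 most and least like the members. Other related genes (Flt3, Dll1, Id2, Tcf4 and genes at 0) were named after their values were seen.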

Additional observations from a re-analysis of the deposited data

How the results depend on the processing

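Genes passing the threshold numbered 0 by edgeR under 13 alternatives and by limma-voom, and 68 by DESeq2. No member passed under any of the 15 alternatives, with adjusted p of at least 0.503. Dcaf8 had a log2 fold change of -2.28 (edgeR adjusted p = 0.739), which passed by DESeq2 (-2.32, adjusted p = 2.13e-09), and it ranged from -2.64 to -2.13 with each library left out. With each library left out, members with higher values in KO numbered 2 to 5, of 7 or 8 fitted, and their median ranged from -0.73 to 0.05. Reversals came from leaving out 1 library alone. The log2 fold change of Notch1 then ranged from -2.41 to 0.26, that of Dach1 from -1.67 to 0.0495 and that of Tcf3 from -0.0040 to 0.21, and the cause was not tested. Blnk was fitted under 6 alternatives, with unadjusted p from 0.0150 without KO replicate 3 to 0.142, and edgeR adjusted p from 0.615 to 0.992. Leaving out both KO replicate 3 and WT replicate 2 was chosen after seeing the data. With the replicate number as a block, 0 genes and 0 members passed and the median of the members was -0.41. Same-numbered libraries had correlations of 0.059, -0.038 and 0.006 between their deviations from the group means, so the numbers were not taken as pairs. Related genes at an unadjusted p under 0.05 numbered 8 to 16 over all alternatives. With 50 cells per library, genes of a few CPM can be missed by sampling.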
